A study of Mus musculus with 2 samples.

Results

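Genes surrounded by many accessible regions were examined in mouse heart, using ATAC-seq, an assay that inserts sequencing adapters into open chromatin of nuclei with the transposase Tn5. All peaks of the deposited table were taken, chosen by the number of peaks per gene, whose gene identifier occurs in at least 20 rows on chromosomes 1 to 19, without the titin gene Ttn and the tensin gene Tns1. The rule found 43 genes with 1060 of the 58076 peaks. There was 1 library from Ythdc1 CKO hearts, in which Ythdc1 is deleted specifically in the heart, and 1 from Ythdc1 flox/flox hearts, which carry the floxed alleles. Both were taken from mice 15 days old on a normal chow diet. The Cre driver, whether the flox/flox mice carried a Cre transgene, the number of animals in a library and any pooling were not stated in the labels. With 1 library per genotype there is no spread between animals to test against, so no p-value is given, and each 95% interval below (Clopper-Pearson) covers counting error only.

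Ythdc1 encodes a nuclear protein that binds N6-methyladenosine in RNA and takes part in splicing, export and chromatin regulation. A gene is controlled by its promoter together with enhancers that may lie in its introns or far outside it, and genes of cell identity often hold many such elements close together. Each peak carries the gene identifier of the authors' annotation, and an assigned peak is not shown to act on that gene. Peak number chose the genes, so their number of peaks is a description. Peaks were called from these libraries, so the accessibility ratios are not independent of the choice either, although the ratio itself played no part in it.

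The windows below show the start sites of the genes with the highest and the lowest summed ratio, because the promoter is the element that all of these genes share. Of the 43 genes, 34 have a window in the RefSeq promoter table (build GRCm38.p6), and 30 have one that overlaps a promoter peak of their own. Printed are the 250 bases upstream of the start for the 3 highest and the 3 lowest of these 30 genes, at the strongest such peak, 5′ to 3′ on the gene's strand. Capitals mark CG dinucleotides, the sites of DNA methylation that cluster in CpG islands. The windows are Mical2 chr7:112225586-112225835 (plus strand), Rgs3 chr4:62619422-62619671 (plus), Ablim1 chr19:57314920-57315169 (minus), Camta1 chr4:151861769-151862018 (minus), Pde4b chr4:102569810-102570059 (plus) and Casz1 chr4:148804142-148804391 (plus).
Mical2: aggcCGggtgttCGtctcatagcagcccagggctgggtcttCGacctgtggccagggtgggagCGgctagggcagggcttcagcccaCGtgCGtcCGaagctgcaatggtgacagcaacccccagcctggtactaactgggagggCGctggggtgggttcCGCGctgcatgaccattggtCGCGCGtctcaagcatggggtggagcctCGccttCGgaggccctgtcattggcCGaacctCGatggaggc
Rgs3: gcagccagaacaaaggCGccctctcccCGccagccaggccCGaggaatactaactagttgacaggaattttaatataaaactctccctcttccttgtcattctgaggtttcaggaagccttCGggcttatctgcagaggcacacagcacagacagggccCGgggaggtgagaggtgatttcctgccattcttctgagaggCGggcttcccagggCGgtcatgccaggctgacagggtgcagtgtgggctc
Ablim1: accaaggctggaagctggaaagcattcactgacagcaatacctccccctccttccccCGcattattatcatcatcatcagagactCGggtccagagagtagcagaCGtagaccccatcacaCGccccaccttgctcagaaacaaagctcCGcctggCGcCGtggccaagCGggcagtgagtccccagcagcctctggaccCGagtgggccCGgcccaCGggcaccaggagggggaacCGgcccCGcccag
Camta1: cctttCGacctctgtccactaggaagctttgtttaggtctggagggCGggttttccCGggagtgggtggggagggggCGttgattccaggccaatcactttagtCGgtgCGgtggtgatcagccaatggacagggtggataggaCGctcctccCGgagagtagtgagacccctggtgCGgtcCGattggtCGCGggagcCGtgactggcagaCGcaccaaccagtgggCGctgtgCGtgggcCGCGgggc
Pde4b: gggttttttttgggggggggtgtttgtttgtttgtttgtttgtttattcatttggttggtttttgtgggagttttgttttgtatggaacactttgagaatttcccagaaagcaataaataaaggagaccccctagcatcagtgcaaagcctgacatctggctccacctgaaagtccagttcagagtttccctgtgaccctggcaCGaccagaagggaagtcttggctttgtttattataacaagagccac
Casz1: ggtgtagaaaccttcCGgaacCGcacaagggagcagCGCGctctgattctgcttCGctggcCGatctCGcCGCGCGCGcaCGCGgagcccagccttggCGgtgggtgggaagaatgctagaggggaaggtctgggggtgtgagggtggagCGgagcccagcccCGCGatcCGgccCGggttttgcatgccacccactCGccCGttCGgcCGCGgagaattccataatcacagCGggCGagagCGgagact
These windows ranged widely in CG content, with 17 CG dinucleotides in Mical2, 7 in Rgs3 and 13 in Ablim1, against 18 in Camta1, 1 in Pde4b and 27 in Casz1. The Pde4b window was 43.2% G and C, and the other 5 were between 56.8% in Rgs3 and 66.8% in Casz1. The promoter peak over the Mical2 window held 411 counts in the CKO library and 398 in the flox/flox library, a ratio of 1.08 (interval 0.938 to 1.24). The Rgs3 peak held 305 counts in the CKO and 223 in the flox/flox library (1.43, 1.20 to 1.71), and the Ablim1 peak 350 counts in the CKO and 301 in the flox/flox library (1.21, 1.04 to 1.42). The Camta1 peak held 630 counts in the CKO and 807 in the flox/flox library (0.816, 0.734 to 0.906). The Pde4b peak held 313 counts in the CKO and 322 in the flox/flox library (1.02, 0.866 to 1.19), and the Casz1 peak 194 counts in the CKO and 238 in the flox/flox library (0.852, 0.701 to 1.03).

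Over all 43 such windows of the 30 genes the median was 64.8% G and C with 19 CG dinucleotides, against 61.6% and 17 over the 12570 windows in any promoter peak of the table and 52.4% and 6 over all 32851 windows. The GC box GGGCGG, read on both strands, occurred in 62.8% of the 43 windows, 62.3% of windows in any promoter peak and 32.7% of all windows. The GATA letters AGATAA occurred in 4.65%, 4.61% and 9.99% of the same sets. The AP-1 letters TGANTCA occurred in 4.65%, 3.98% and 6.75%, and the TEAD letters GGAATG in 11.6%, 10.04% and 12.6%. The MEF2 core TATTTTTA was in 0 of the 43 windows and in 0.939% of those in any promoter peak, and the CArG box of serum response factor in 0 and in 1.03%. These are matches of letters in 250 bases and say nothing of the factors or of the peaks further away. A window could hold several of these motifs, and overlaps between motifs were not removed.

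The data behind these genes are as follows. The counts over all peaks were 6466537 in the CKO library and 6755590 in the flox/flox library, and the 1060 peaks held 103300 of them in the CKO (1.60%) and 102213 in the flox/flox library (1.51%). The median of these peaks held 67 counts in the CKO library and 70 in the flox/flox library. Ratios are CKO over flox/flox of counts divided by these totals. The 1 peak assigned to Ythdc1, at its promoter, held 314 counts in the CKO and 358 in the flox/flox library (ratio 0.916, 0.785 to 1.07), and it does not check the genotype, since the deleted exons need not lie under it. Cardiomyocyte markers had a promoter peak in 6 of 8 genes, with a summed promoter level of 321 CPM (counts scaled to the total over peaks) in the CKO and 353 CPM in the flox/flox library. Endothelial markers had one in 8 of 9 (214 CPM in the CKO, 191 CPM in the flox/flox library) and fibroblast markers in 6 of 8 (110 CPM in the CKO, 90.00 CPM in the flox/flox library). Mural markers had one in 5 of 7 (76.2 CPM in the CKO, 71.8 CPM in the flox/flox library) and epicardial markers in 2 of 4 (68.2 CPM in the CKO, 63.9 CPM in the flox/flox library). Neuronal and glial markers had one in 2 of 4 (18.7 CPM in the CKO, 19.8 CPM in the flox/flox library) and myeloid markers in 1 of 6 (4.79 CPM in the CKO, 4.88 CPM in the flox/flox library). Markers of skeletal muscle, epithelium and adipocytes had a promoter peak in 0 of 4 genes each. Markers were found by matched symbol, which 17415 of 24480 identifiers had. A marker counted as without a peak may therefore lack a match instead. Summed over all their peaks, mural markers lay on the other side, with 187 CPM in the CKO and 216 CPM in the flox/flox library, as did neuronal and glial markers (28.1 CPM in the CKO, 27.7 CPM in the flox/flox library) and myeloid markers (52.4 CPM in the CKO, 43.7 CPM in the flox/flox library). Cardiomyocyte markers (1173 CPM in the CKO, 1357 CPM in the flox/flox library), endothelial markers (1005 CPM in the CKO, 915 CPM in the flox/flox library), fibroblast markers (232 CPM in the CKO, 196 CPM in the flox/flox library) and epicardial markers (126 CPM in the CKO, 112 CPM in the flox/flox library) lay on the same side as at promoters. Cardiomyocyte markers were split, with Tnnt2 higher in the CKO library (ratio 1.14, 1.07 to 1.21) and Myh6, Actn2, Ryr2, Tnni3 and Pln lower. The 3 types without a promoter peak had 9.90 CPM in the CKO and 20.7 CPM in the flox/flox library for skeletal muscle, 54.6 CPM in the CKO and 36.9 CPM in the flox/flox library for epithelium, and 91.5 CPM in the CKO and 76.4 CPM in the flox/flox library for adipocytes. In such whole hearts, a change in the number of cells of a type and a change in accessibility per cell cannot be told apart. The part of these marker levels in the results below was not tested.

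The genes with the most peaks were of large span. Arhgap26, a GTPase-activating protein (chromosome 18, 38601603 to 39372511, GRCm38.p6), held 44 peaks, and Pde4d, a phosphodiesterase that breaks down cyclic AMP (chromosome 13, 108449948 to 109951474), held 38. Ablim1, an actin-binding LIM protein, held 36. Kalrn, an exchange factor that activates small GTPases, held 34 and Gse1 29. Tanc1, a scaffold protein, and Tcf4, a basic helix-loop-helix transcription factor, held 28 each, and Mical2 and Ptprm 27 each. Their median span was long, with 335 kb over the 43 genes, against 142 kb over the 405 autosomal genes of 10 to 19 peaks and 9.31 kb over all 23896 autosomal identifiers with a peak. Of 74 genes with 5 or more peaks and a span over 500 kb, 14 were among the 43, while 18 of 332 with a span of 200 to 500 kb, 8 of 513 with 100 to 200 kb and 3 of 1830 below 100 kb were. The 3 short ones were Rxra, the retinoid X receptor alpha gene (86.5 kb, 21 peaks), and 2 long non-coding RNA genes of RefSeq, 9430078K24Rik (19.2 kb, 24 peaks) and Gm10532 (8.16 kb, 21 peaks).

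**Figure D1:**
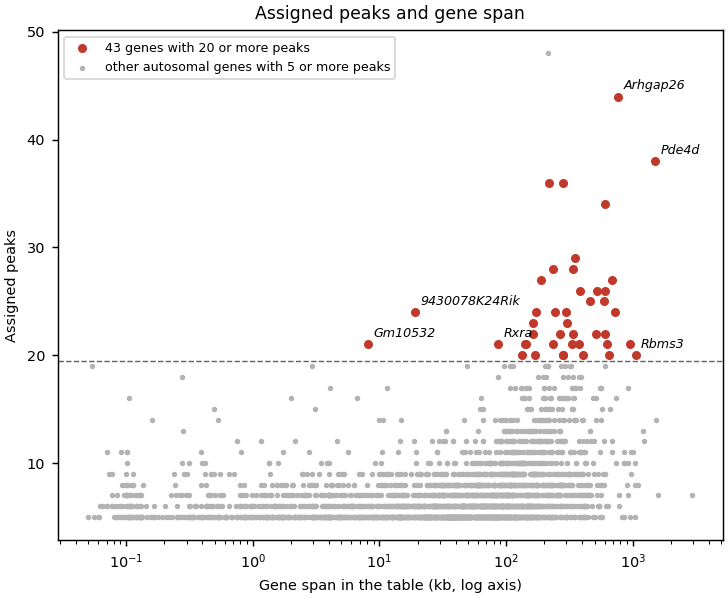
Number of assigned peaks per gene against the span of the gene in kb on a log axis, for autosomal genes with 5 or more peaks. Red points are the 43 genes and grey points all others, including the left-out Tns1 (48 peaks) and Ttn (22 peaks), and the dashed line marks the minimum of 20. Most red points lie above 100 kb, and Gm10532, 9430078K24Rik and Rxra lie to the left of them.

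For both long non-coding genes the assigned gene differs from the gene in which many of the peaks lie. Of the 21 peaks of Gm10532, 1 lay within its span and 20 lay in introns of Ctif, a translation initiation factor gene that works with the nuclear cap-binding complex. Of the 24 peaks of 9430078K24Rik, 2 lay within its span and 9 in introns of Rad51b, a gene of homologous recombination. For Gse1, 24 peaks lay in introns that the table credits to another identifier (ENSMUSG00000092329). Over all 43 genes, 933 of 1060 peaks (88.0%) lay within the span of their assigned gene, and in 14 genes all peaks did.

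Most peaks were intronic. Of the 1060 peaks, 480 (45.3%) lay in a later intron and 198 (18.7%) in the first intron, against 19.6% and 9.92% of all autosomal peaks. Promoter peaks, within 1 kb of a start site, were 187 (17.6%, against 33.1% of all autosomal peaks), and intergenic peaks 86 (8.11%, against 23.6%). Most genes held several promoter peaks, with 2 or more in 41 of 43 genes, a median of 4 and up to 8, reached by Rgs3, Pde4d, Macf1, Tcf4 and Shroom3. The number of different start sites among them was not counted. Peaks were dense in Rgs3, with 15.2 peaks per 100 kb between its first and last peak, and sparsest in Rbms3 with 2.05 and Pde4d with 2.34. The strongest peak of a gene was a promoter peak in 25 genes and intronic in 16, and all 43 strongest peaks were called in both libraries. Just outside the threshold stood 15 genes with 19 peaks, among them Cd36, Col4a1, Itga9 and Timp3, and 10 with 18, and just inside 7 genes with 20 and 9 with 21.

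By the authors' gene ontology terms, available for 41 of the 43 genes, terms of several kinds held a larger share of these genes than of genes with fewer peaks, cytoskeletal and synaptic ones among them. The term cytoskeleton was given to 10 of 41 (24.4%), against 14.1% of 355 genes with 10 to 19 peaks and 7.01% of all 14022 genes with terms. Actin binding was given to 6 (14.6%, against 7.04% and 2.16%), namely Ablim1, Dst, Macf1, Mical2, Shroom3 and Sptbn1. Postsynaptic density was given to 8 (19.5%, against 4.79% and 1.92%) and axon to 5 (12.2%, against 3.66% and 2.52%). Focal adhesion was given to 5 (12.2%, against 4.23% and 1.08%), Z disc to 4 (9.76%, against 3.66% and 0.849%) and guanyl-nucleotide exchange factor activity to 4 (9.76%, against 6.19% and 0.963%). The terms were picked after the counts had been seen and carry no test.

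Summed over its peaks, accessibility was higher in the CKO library in 24 genes and lower in 19, with a median log2 ratio of 0.04 (quartiles -0.15 and 0.19, SD 0.232 over genes). The range was -0.43 for Camta1 to 0.65 for Gm10532. The median was 0.0013 over the 405 genes of 10 to 19 peaks, and -0.05 over all autosomal genes with a peak. The interval lay above 1 in 17 genes, below 1 in 13 and held 1 in 13. Among the 405 genes of 10 to 19 peaks it lay above 1 in 122, below 1 in 111 and held 1 in 172. Intervals narrow as summed counts rise, so these numbers also depend on the number of peaks. The split of directions depends on the scale: with the library totals implied by the authors' RPM values, each log2 ratio is lower by 0.17, and 12 genes lay above 1 and 31 below. A log2 ratio of at least 0.322 to either side was used as a fixed rule of size for genes, called the gene rule. Past it, 5 of 43 genes (11.6%) were higher, where 8.15% of the 405 genes with 10 to 19 peaks and 16.6% of all autosomal genes with a peak were. On the other side, 1 of 43 (2.33%) was lower, where 8.64% and 24.9% of the same sets were. Genes with 10 to 19 peaks are the set nearest to these 43 in number of peaks. On the RPM scale 1 gene, Gm10532, was higher and 11 were lower by the gene rule. The shares of the other sets were not computed on this scale, so these numbers cannot be set beside the shares above.

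**Figure D2:**
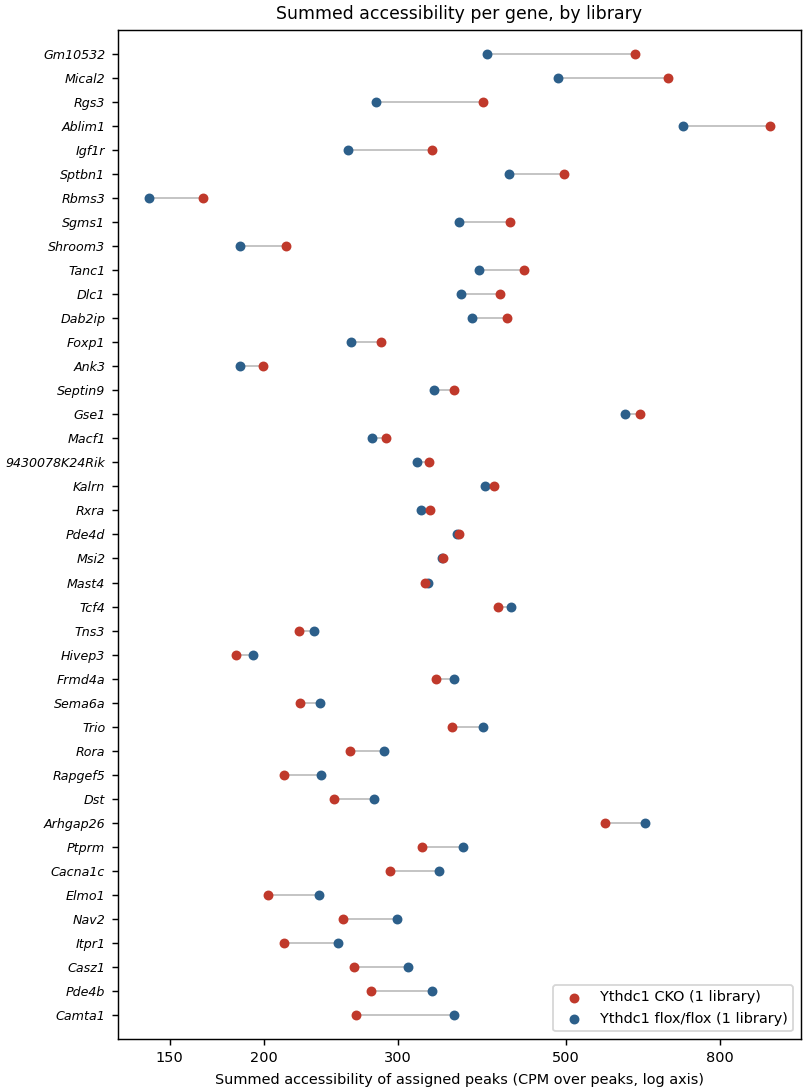
Summed level of the assigned peaks of each gene in CPM over peaks on a log axis, red for the Ythdc1 CKO library and blue for the Ythdc1 flox/flox library, with 1 library each, for 41 of the 43 genes ordered by ratio. The red point lies right of the blue in the upper 22 genes and left of it in the lower 19, and the widest gaps are at Gm10532 among the upper and at Camta1 among the lower genes.

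Among sarcomere and cytoskeletal genes, Ablim1 had the highest summed level of the 43 in both libraries, and Mical2 and Ablim1 were among the 5 genes past the gene rule on the higher side. Mical2 encodes an enzyme that oxidises actin and thereby promotes transcription with serum response factor. The gene (ENSMUSG00000038244) spans chromosome 7 from 112225856 to 112413106. Its 27 peaks summed to 4412 counts in the CKO and 3303 in the flox/flox library (682 CPM in the CKO against 489 CPM in the flox/flox library), a ratio of 1.40 (interval 1.33 to 1.46). Peaks above 1 numbered 22 and peaks below 5, and 7 were at least 2-fold higher with 0 at least 2-fold lower. The strongest, in a later intron (chromosome 7, 112299027 to 112300139), held 608 counts in the CKO and 431 in the flox/flox library (ratio 1.47, 1.30 to 1.67). A second strong intronic peak (112289670 to 112290715) was called in both libraries and held 458 counts in the CKO and 168 in the flox/flox library, a ratio of 2.85. Promoter peaks of Mical2 had a log2 ratio of 0.19 and its other peaks of 0.56, so the ratio was higher outside promoters.

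Ablim1 links actin filaments to other proteins through its LIM domains. The gene (ENSMUSG00000025085) spans chromosome 19 from 57032733 to 57314919. Its 36 peaks summed to 6008 counts in the CKO and 4832 in the flox/flox library (929 CPM in the CKO against 715 CPM in the flox/flox library), a ratio of 1.30 (1.2505 to 1.35). It had the highest share of agreeing peaks among the 43 genes, with 33 of 36 above 1. In 21 peaks the interval lay above 1 and in 0 below it. The strongest peak (chromosome 19, 57098235 to 57099326) held 491 counts in the CKO and 445 in the flox/flox library, and the highest ratio was 2.05, at an intronic peak called in both libraries (57090090 to 57090554) with 179 counts in the CKO and 91 in the flox/flox library. Most single peaks differed modestly, with an SD of 0.308 over the log2 ratios, the smallest of the 43 genes, and 1 peak was at least 2-fold higher.

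Dst and Macf1 are both spectraplakins that join actin to microtubules, and the difference between the genes was not tested. Their counting intervals leave out the spread of peaks within a gene, which was wider than counting error in both. Dst had 1601 counts in the CKO and 1885 in the flox/flox library (0.887, 0.830 to 0.949), with 17 of 23 peaks below 1. Macf1 had 1872 counts in the CKO and 1874 in the flox/flox library (1.04, 0.978 to 1.11), with 11 of 21 peaks above 1. Tns3, a tensin of focal adhesions, had 1438 counts in the CKO and 1572 in the flox/flox library (0.956, 0.889 to 1.03).

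The 6 genes of this list had a median log2 ratio of 0.12, with 4 above 1 and 2 below, but the median was -0.05 on the RPM scale, with 3 above and 3 below. Across the other 44 genes of the list that had peaks, the median was -0.0082, and 4 were higher and 5 lower by the gene rule. Cytoskeletal genes that stood on no list also had dense peaks. Sptbn1, the beta-spectrin of the membrane skeleton, had 3215 counts in the CKO and 2841 in the flox/flox library (1.18, 1.12 to 1.24). Shroom3, an actin-binding organiser of cell shape, had 1381 in the CKO and 1256 in the flox/flox library (1.15, 1.06 to 1.24), and Septin9, a filament-forming GTPase, 2305 in the CKO and 2261 in the flox/flox library (1.07, 1.005 to 1.13).

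Among growth factor and kinase signalling genes, Rgs3 and Igf1r were higher in the CKO library by the gene rule. On the RPM scale both fell short of it, with log2 ratios of 0.296 for Rgs3 and 0.194 for Igf1r. Rgs3 encodes a regulator that shortens signalling of heterotrimeric G proteins. The gene (ENSMUSG00000059810) spans chromosome 4 from 62559847 to 62703018. Its 21 peaks summed to 2513 counts in the CKO and 1898 in the flox/flox library (389 CPM in the CKO against 281 CPM in the flox/flox library), a ratio of 1.38 (1.30 to 1.47), and 19 of 21 lay above 1. All 8 promoter peaks lay above 1, and together they held 1298 counts in the CKO and 997 in the flox/flox library, a log2 ratio of 0.44 beside 0.49 for the other peaks. The interval lay above 1 in 11 peaks and below 1 in 0. The strongest (chromosome 4, 62619220 to 62619885) is the one whose window is printed above.

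Igf1r encodes the receptor tyrosine kinase for insulin-like growth factors. The gene (ENSMUSG00000005533) spans chromosome 7 from 67952827 to 68233668. Its 20 peaks summed to 2151 counts in the CKO and 1743 in the flox/flox library (333 CPM in the CKO against 258 CPM in the flox/flox library), a ratio of 1.29 (1.21 to 1.37), with 16 of 20 above 1. Its promoter peak (chromosome 7, 67950817 to 67952451) made up 30.3% of the gene's counts over both libraries and held 609 counts in the CKO and 569 in the flox/flox library (1.12, 0.996 to 1.26). Its other peaks carried most of the difference, with 1392 counts in the CKO and 1040 in the flox/flox library outside promoters, a log2 ratio of 0.48 against 0.17 at promoters. An intronic peak (68129017 to 68129514), called in both libraries, held 196 counts in the CKO and 100 in the flox/flox library. With peaks called in both libraries alone, the log2 ratio of Igf1r was 0.289, short of the gene rule.

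The difference between the cyclic AMP phosphodiesterases Pde4b and Pde4d was not tested either, and their peaks too spread more widely than counting error. Pde4b had 1791 counts in the CKO and 2251 in the flox/flox library (0.831, 0.781 to 0.885), with 19 of 26 peaks below 1. Pde4d had 2340 in the CKO and 2427 in the flox/flox library (1.01, 0.951 to 1.07), with 22 of 38 peaks above 1. Single peaks of Pde4d spread far to both sides, with 35 counts in the CKO and 5 in the flox/flox library at a peak called in the CKO library alone (chromosome 13, 109651882 to 109652154), and 6 counts in the CKO and 42 in the flox/flox library at one called in the flox/flox library alone (109657431 to 109657659).

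Of the GTPase regulators, Arhgap26 had 3639 counts in the CKO and 4295 in the flox/flox library (0.885, 0.847 to 0.925), with 29 of 44 peaks below 1. Its promoter peaks lay on the other side, with 715 counts in the CKO and 634 in the flox/flox library, against 2924 in the CKO and 3661 in the flox/flox library at its other peaks. Rapgef5, an exchange factor for Rap GTPases, had 1374 counts in the CKO and 1604 in the flox/flox library (0.895, 0.832 to 0.962), and Trio, an exchange factor of the family of Kalrn, 2290 in the CKO and 2625 in the flox/flox library (0.911, 0.861 to 0.964). Ptprm, a receptor-type tyrosine phosphatase, had 2089 counts in the CKO and 2472 in the flox/flox library (0.883, 0.832 to 0.936), and its promoter peaks were again on the other side (log2 ratio 0.11, against -0.31 outside promoters). The 8 signalling genes had a median log2 ratio of -0.15, with 3 above 1 and 5 below, and the other 83 of the list with peaks a median of -0.02, with 5 higher and 11 lower by the gene rule. On the RPM scale the median of the 8 was -0.319, with 2 above 1 and 6 below. The rest of each list was not put on this scale.

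Further GTPase genes stood outside the lists. Kalrn had 2603 counts in the CKO and 2644 in the flox/flox library (1.03, 0.974 to 1.09). Its 34 peaks disagreed widely, with 6 at least 2-fold higher and 3 at least 2-fold lower. Elmo1, a partner of DOCK proteins in activating Rac, had 1310 counts in the CKO and 1596 in the flox/flox library (0.857, 0.796 to 0.923), with 18 of 22 peaks below 1, while its strongest peak, at the promoter, had 263 counts in the CKO and 216 in the flox/flox library (1.27, 1.06 to 1.53). Dlc1, another GTPase-activating protein, had 2648 in the CKO and 2460 in the flox/flox library (1.12, 1.06 to 1.19), with 20 of 26 peaks above 1. Dab2ip, a GTPase-activating protein for Ras, had 2706 counts in the CKO and 2538 in the flox/flox library (1.11, 1.05 to 1.18).

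Genes of calcium and ion channels were 3 in number, Cacna1c, Itpr1 and Ank3. Cacna1c encodes the pore of the cardiac L-type calcium channel, through which calcium enters to trigger contraction. Its 22 peaks summed to 1897 counts in the CKO and 2299 in the flox/flox library, a ratio of 0.862 (0.811 to 0.916), with 14 below 1. The strongest peak, in the first intron (chromosome 6, 119139353 to 119140024), held 183 counts in the CKO and 282 in the flox/flox library (0.678, 0.560 to 0.819). The promoter peak at the 5′ end (119196399 to 119196868) held 143 counts in the CKO and 244 in the flox/flox library. Itpr1, an intracellular calcium release channel, had 1375 counts in the CKO and 1691 in the flox/flox library (0.849, 0.791 to 0.913), although 10 of its 22 peaks lay above 1. The promoter peak of Itpr1 alone (chromosome 6, 108212602 to 108213339) held 361 counts in the CKO and 499 in the flox/flox library. Ank3, an ankyrin that anchors membrane channels, had 1290 counts in the CKO and 1257 in the flox/flox library (1.07, 0.991 to 1.16). Of the other 33 genes of this list with peaks the median log2 ratio was -0.23, and 1 was higher and 13 lower by the gene rule. Of Cacna1c, Itpr1 and Ank3, 0 lay above 1 and 3 below on the RPM scale.

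Of 33 cardiac transcription factor genes listed, such as Gata4 and Mef2a, 28 had peaks under a matched symbol and 0 were among the 43 genes; they had a median of 6 peaks. Other transcription regulators held 8 of the 43. Camta1, a calmodulin-binding transcription activator, was the only gene of the 43 that was lower by the gene rule. The gene (ENSMUSG00000014592) spans chromosome 4 from 150917322 to 151861669. Its 21 peaks summed to 1711 counts in the CKO and 2406 in the flox/flox library (265 CPM in the CKO against 356 CPM in the flox/flox library), a ratio of 0.743 (0.698 to 0.791), with 16 below 1. The interval lay below 1 in 13 of its peaks and above 1 in 0, and 8 peaks were at least 2-fold lower. Its promoter peak alone made up 34.9% of the gene's counts over both libraries, with 630 counts in the CKO and 807 in the flox/flox library. Of the 21 peaks, 9 were called in the flox/flox library alone, 1 in the CKO library alone and 11 in both, and with peaks called in both alone its log2 ratio was -0.319, just short of the gene rule. One intronic peak called in both (151666331 to 151666955) held 72 counts in the CKO and 160 in the flox/flox library.

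Casz1, a zinc finger factor needed for heart development, had 1701 counts in the CKO and 2092 in the flox/flox library (0.849, 0.796 to 0.906), with 14 of 21 peaks below 1. Rora, a nuclear receptor of circadian and metabolic control, had 1679 counts in the CKO and 1945 in the flox/flox library (0.902, 0.844 to 0.963), with 16 of 24 below 1. Foxp1, a forkhead repressor, stood on the other side with 1843 counts in the CKO and 1757 in the flox/flox library (1.10, 1.03 to 1.17). For Rxra (1.03, 0.968 to 1.09), Hivep3 (0.952, 0.879 to 1.03) and Tcf4 (0.961, 0.912 to 1.01) the interval held 1. The 8 genes had a median log2 ratio of -0.06, with 3 above 1 and 5 below, and the other 80 of the list with peaks a median of -0.05, with 6 higher and 13 lower by the gene rule. The RPM scale gave these 8 a median of -0.236, with 1 above 1 and 7 below.

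The remaining lists held 4 of the 43 genes. Sgms1, a sphingomyelin synthase, had 2733 counts in the CKO and 2445 in the flox/flox library (1.17, 1.11 to 1.23), and Sema6a, a transmembrane guidance molecule, 1444 in the CKO and 1602 in the flox/flox library (0.942, 0.876 to 1.01). The RNA-binding protein gene Rbms3 had 1073 counts in the CKO and 952 in the flox/flox library (1.18, 1.08 to 1.29), with 10 of 20 peaks above 1. Msi2, a Musashi translational regulator, had 2229 in the CKO and 2320 in the flox/flox library (1.004, 0.947 to 1.06). Among the genes on no list, Nav2, which is named for a role in neurons, had 1645 counts in the CKO and 2021 in the flox/flox library (0.850, 0.796 to 0.908), and Tanc1 2852 in the CKO and 2596 in the flox/flox library (1.15, 1.09 to 1.21). The interval held 1 for Mast4, a microtubule-associated kinase (0.993, 0.936 to 1.05), for Frmd4a (0.946, 0.893 to 1.003) and for 9430078K24Rik (1.04, 0.976 to 1.10). Gse1 had 4052 counts in the CKO and 4044 in the flox/flox library, a log2 ratio of 0.07.

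The highest ratio of the 43 was at Gm10532, and so at introns of Ctif. Its 21 peaks, on chromosome 18 from 75448045 to 75600172, summed to 3988 counts in the CKO and 2663 in the flox/flox library (617 CPM in the CKO against 394 CPM in the flox/flox library), a ratio of 1.56 (1.49 to 1.64), with 17 above 1. The strongest (75502750 to 75503927) held 977 counts in the CKO and 511 in the flox/flox library (2.00, 1.79 to 2.23), 22.4% of the counts over both libraries. The peak at the start of Gm10532 itself held 84 counts in the CKO and 71 in the flox/flox library, with a log2 ratio of 0.30. Without this gene and 9430078K24Rik, the median log2 ratio of the other 41 genes was 0.010.

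**Figure D3:**
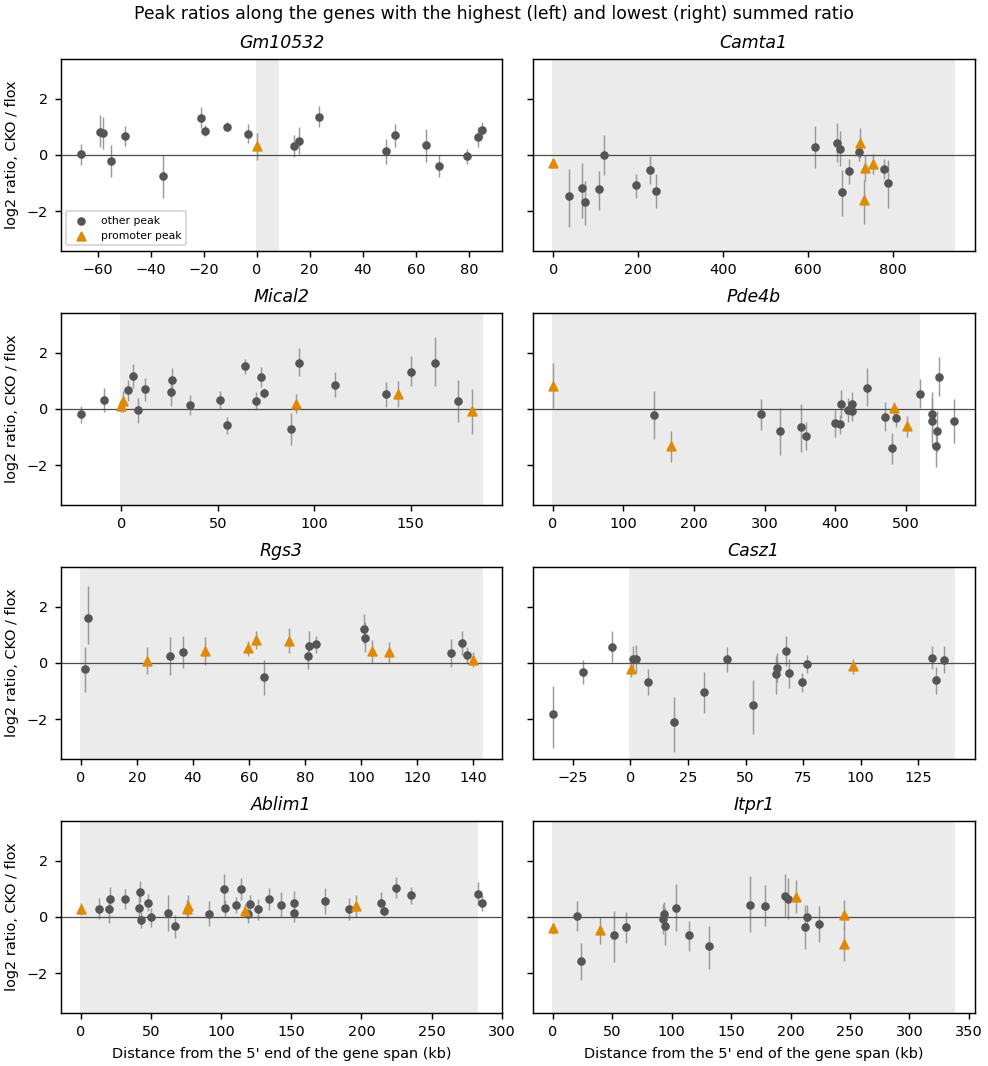
Log2 ratio of each peak, CKO over flox/flox, against the distance of its centre from the 5′ end of the gene span in kb, for the 4 genes with the highest (left) and the 4 with the lowest summed ratio (right). Triangles are promoter peaks, circles other peaks, bars 95% counting intervals, and grey shading the gene span. Nearly all Ablim1 peaks lie slightly above 0, Mical2 and Gm10532 peaks lie further up with a few below, and the Camta1 peaks in the 5′ part of the gene lie below 0.

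Peaks of a gene agreed only in part. A peak was counted as agreeing when its ratio lay on the same side of 1 as the sum of the other peaks of its gene. This held for 648 of 1060 peaks (61.1%), and for 57.5% of the peaks of genes with 10 to 19 peaks. In the 30 genes whose interval excluded 1 the share was 68.6%, and it was 69.6% in such genes of 10 to 19 peaks. These genes were set apart by the sum of the same peaks, which by itself raises the share. In the 13 genes whose interval held 1 it was 43.8%, where low shares arise by construction, since taking out a peak of such a gene can move the sum of the rest across 1. The highest shares were 91.7% in Ablim1, 90.5% in Rgs3, 81.8% in Elmo1 and 81.5% in Mical2, and 81.0% in Gm10532 and 80.0% in Igf1r followed. The lowest were 4.76% in Msi2 (1 of 21), 26.9% in Mast4, 36.8% in Pde4d and 38.1% in Ank3. Even so 39 of the 43 genes had at least 1 peak with an interval above 1 and 1 with an interval below 1. The 4 without were Ablim1, Rgs3 and Igf1r, with no peak below, and Camta1, with none above. Of the 405 genes with 10 to 19 peaks, 298 had both, and a gene with more peaks has more occasions to hold both.

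Within a gene the log2 ratios had a median SD of 0.627, from 0.308 in Ablim1 to 0.943 in Rapgef5. Their spread was wider than counting error in all 43 genes: the Pearson chi-square per degree of freedom, which is 1 for counting error alone, was 2.48 in Dst, 5.24 at the median and 10.5 in Mical2. Differences between genes accounted for 11.2% of the variance of the peak log2 ratios, and for 10.5% in genes of 10 to 19 peaks. When the peaks of each gene were split by alternate position, both sums lay on the same side of 1 in 34 of 43 genes (Pearson r 0.63, Spearman rank correlation 0.59, as a description over genes that share the 2 libraries). In genes of 10 to 19 peaks this held for 272 of 405 (Pearson r 0.51, Spearman rank correlation 0.49). Of 1017 neighbouring pairs of peaks, 587 (57.7%) lay on the same side, against 55.0% of 4728 pairs in genes of 10 to 19 peaks. For the 43 genes this share was between 54.7% and 58.9% in all 4 classes of distance between the peaks. Pearson r was 0.24 for the 192 pairs under 2 kb apart, 0.10 for the 139 at 2 to 5 kb, 0.096 for the 467 at 5 to 20 kb and 0.15 for the 219 over 20 kb apart.

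**Figure D4:**
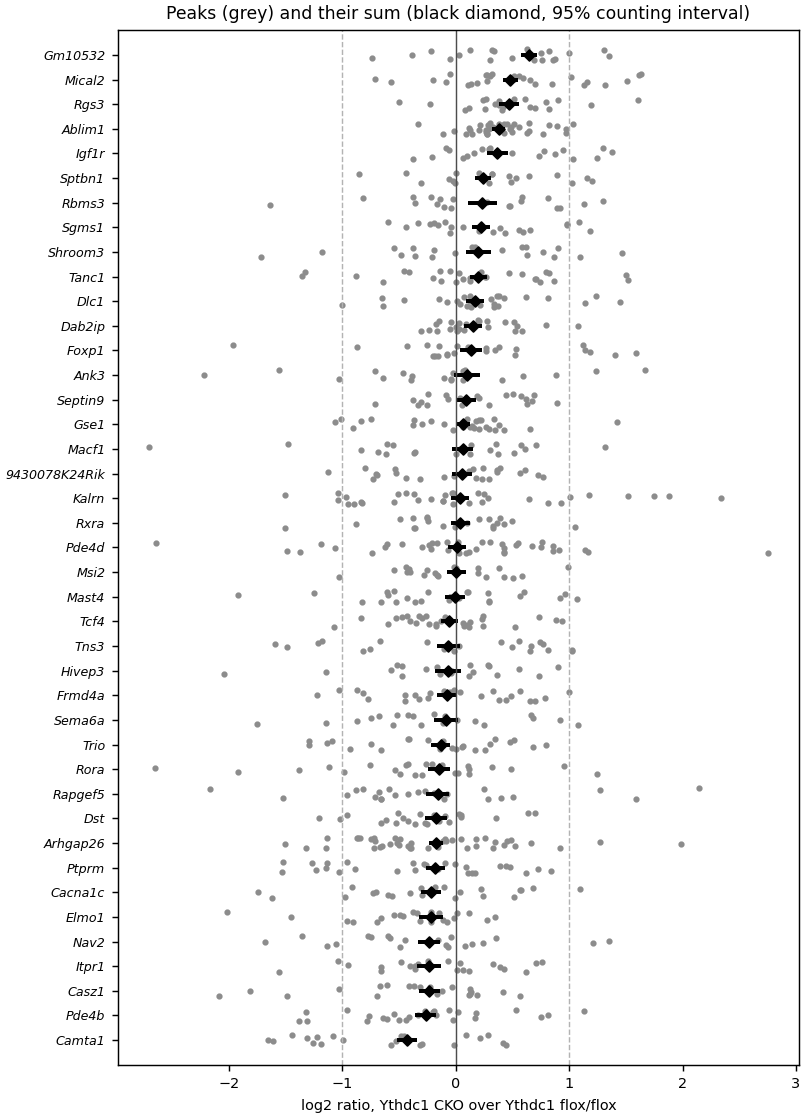
Log2 ratio of every peak (grey) and of the summed counts (black diamond, 95% counting interval), CKO over flox/flox, for 41 of the 43 genes ordered by summed ratio. Dashed lines mark 2-fold. The summed ratios span -0.43 to 0.65, while the peaks of most genes lie on both sides of 0.

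Promoter peaks and other peaks of a gene lay on the same side of 1 in 33 of 43 genes (Pearson r 0.49, Spearman rank correlation 0.45, again over genes that share the libraries). In genes of 10 to 19 peaks that had both kinds of peak, this held for 223 of 370 (Pearson r 0.34, Spearman rank correlation 0.32). The other peaks lay further from 1 than the promoter peaks in 26 of the 43 genes. In Elmo1, Arhgap26, Ptprm and Rora the promoter sum was above 1 and the sum of the other peaks below, with log2 ratios of 0.29 and -0.34 in Elmo1, 0.24 and -0.26 in Arhgap26, 0.11 and -0.31 in Ptprm, and 0.13 and -0.25 in Rora. The reverse held for Macf1 (-0.09 at promoters, 0.23 elsewhere), Ank3 (-0.19, 0.18), Kalrn (-0.16, 0.09), Rxra (-0.17, 0.08) and Msi2 (-0.15, 0.03), among others.

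**Figure D5:**
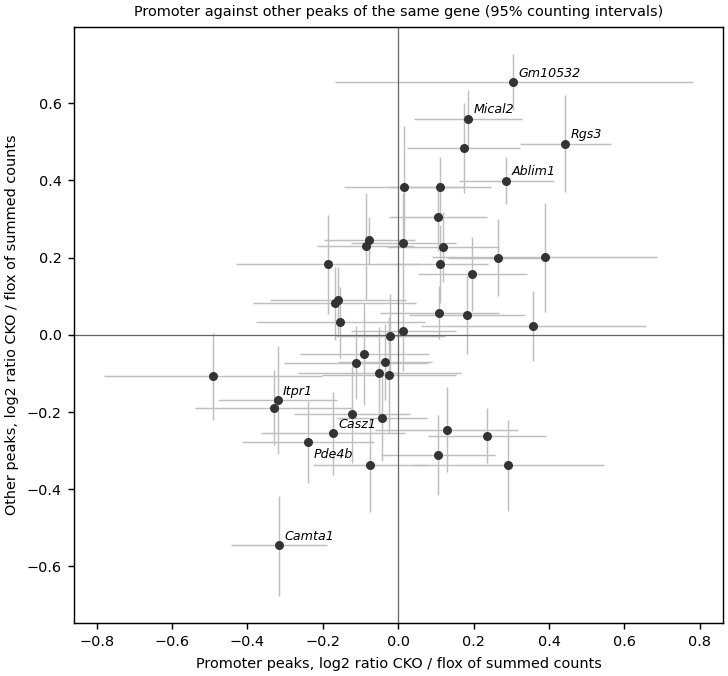
Log2 ratio CKO over flox/flox of the summed promoter peaks (horizontal) against that of all other peaks (vertical), 1 point per gene for the 43 genes, with 95% counting intervals. Of the points, 33 lie in the upper right or lower left quadrant, with Camta1 lowest and Gm10532 highest.

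Past a rule of 2-fold, 67 of the 1060 peaks (6.32%) had a higher level in the CKO library, where 6.09% of all 58076 peaks did, and 86 (8.11%) a lower one, where 8.96% did. Both shares were near those of the whole table. The interval lay above 1 in 251 peaks (23.7%, against 17.7% of all) and below 1 in 213 (20.1%, against 21.7%). Higher peaks were 43.8% of those past 2-fold, but 25.2% on the RPM scale (40 higher, 119 lower) and 60.9% after centring on peaks of like signal (92 higher, 59 lower). The split over all peaks of the table was not computed for these alternatives. The library in which a peak was called moved with its ratio. Of the 190 peaks called in the CKO library alone, 57 were at least 2-fold higher and 0 lower, and of the 322 called in the flox/flox library alone, 0 were higher and 81 lower, a direction that calling fixes. Of the 548 peaks called in both, 10 were at least 2-fold higher and 5 lower. Over all autosomal peaks called in both libraries, 0.859% were higher and 1.03% lower. Among all autosomal peaks called in the CKO library alone, 35.5% were higher. Among all those called in the flox/flox library alone, 28.8% were lower. Accordingly, the highest peak of a gene was called in the CKO library alone in 37 genes, and the lowest in the flox/flox library alone in 39.

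Signal also moved with the ratio. With the 1060 peaks in 4 equal classes of mean level, the median log2 ratio was -0.18 in the weakest class and 0.0059, 0.12 and 0.12 in the following classes, against -0.26, -0.07, -0.0095 and 0.0052 for all peaks of the same signal. At matched signal the 43 genes thus lay slightly higher in all 4 classes. The part of signal and of peak calling in the gene ratios was not tested, beyond the alternatives given with the processing.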

How the data were processed

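ATAC-seq libraries of hearts from Ythdc1 CKO and Ythdc1 flox/flox mice, 1 each, were compared. Per the submitters' processing notes, BWA, MACS2 and build GRCm38.p6 were used. Versions, read filters, duplicate removal and any Tn5 shift were not stated in the labels. The authors deposited whole-number counts for 58076 peaks merged over both libraries, and a mark for each library that called the peak. The deposited RPM values equal (count + 1) times 0.01822 in the CKO and 0.01965 in the flox/flox library. The authors' fold enrichment, a ratio per peak, was not used. Their deposited log2 column was checked to be the log2 of CKO over flox/flox RPM.

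Counts were scaled by their sums over all peaks (6466537 CKO, 6755590 flox/flox). Peak log2 ratios have 0.5 counts added per library, and gene ratios are of summed counts. Rules of size (log2 ratio of 0.322 for genes, 2-fold for peaks) replace tests. Classes are the authors' annotation. Identifiers took a RefSeq symbol of the same build where the overlap of spans was at least 0.5 of their union and at least 2 times the next candidate, or both ends lay within 1 kb. This gave 17415 of 24480 identifiers and all 43 genes, and the lowest overlap among these was 0.691, for Mical2. The members and lists were chosen with earlier results of these data known. Genes could be named if they were members, with full values for those with most peaks, the highest and lowest ratios and agreement, and the listed genes. A few further peaks of these genes were chosen after their values were seen. Python 3.11.15, pandas 2.3.3, SciPy 1.17.1, and edgeR 4.0.16 for TMM factors, were used. The steps were tested on simulated counts. These held counting error alone around the gene ratio, without the wider spread of peaks found within the real genes. Single values of 2 of the 43 genes are not reported here, and both stay in the counts and medians.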

Additional observations from a re-analysis of the deposited data

How the results depend on the processing

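No paired analysis was possible because there was 1 library per genotype, and for the same reason no replicate could be left out. The median log2 ratio of the 43 genes, 0.04, was 0.0924 with TMM scaling, 0.0920 centred on the median of all peaks and -0.132 on the RPM scale. It was -0.0268 without the strongest peak of each gene, -0.0417 as a mean of peak log2 ratios and 0.0104 without Gm10532 and 9430078K24Rik. Its sign thus depends on the processing. The 5 genes higher by the gene rule (log2 ratio of at least 0.322) became 1 on the RPM scale, 2 with at least 25 peaks per gene and 1 at 1.5-fold. The 1 lower gene became 11 on the RPM scale, 3 outside promoters, 3 without the strongest peaks, 2 with signal-binned centring, and 0 with peaks called in both libraries, with at least 25 peaks or at 1.5-fold. The 67 peaks at least 2-fold higher became 40 on the RPM scale, 10 with peaks called in both libraries, 35 with at least 25 peaks and 193 at 1.5-fold. The 86 lower peaks became 5 with peaks called in both libraries, 33 with at least 25 peaks and 187 at 1.5-fold. The share of agreeing peaks, 61.1%, was 64.2% with peaks called in both libraries. Fewer genes or peaks enter with at least 25 peaks (15 genes, 455 peaks) and with peaks called in both (548 peaks), and the cause of the other shifts was not tested. None of the 6 genes past that rule changed sign in the 10 settings run on single genes. The alternatives of peaks within the span of the gene, signal-binned centring and leaving out both non-coding genes were chosen after seeing the data. Depth limits single peaks, whose median held 67 counts in the CKO and 70 in the flox/flox library.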
